A study of Mus musculus with 10 samples.

Results

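RNA of normal mouse kidney was hybridised to Affymetrix mouse arrays with and without amplification, and the comparison described here sets the 2 arrays of amplified total RNA against the 2 arrays of unamplified total RNA. These are 4 of the 10 arrays in the series, chosen by their titles. All probe sets other than the Affymetrix controls entered, 22626 of 22690, and 13575 of them passed a filter on dim signal and were tested. The mice were male C57/BLACK6 animals aged 7 weeks and weighing about 20 g, and the normal group had neither surgery nor clamping in the labels. Every mouse, the normal ones included, received 4-thiouridine (s4U), a uridine analogue taken up into new RNA, by intraperitoneal injection of 1 ml at 200 µM. The protocols also name tritiated cytidine. In the normal group the injections were given at 0 h and 1 h and the kidneys were taken at 2 h. A second set of 4 arrays is used for comparison: total and amplified total RNA, 2 arrays each, from the unclamped (contralateral) kidney of mice whose other kidney was clamped for 45 min. Those mice were injected 1 h and 2 h after reperfusion and the kidney was taken at 3 h. The remaining arrays, 1 per kidney group, hold newly transcribed RNA and enter only the offset, the normalization, the mean signal used for the filter and the variance trend, and the choice of a gene's brightest probe set. The titles call the arrays biological replicates, and whether a total and an amplified array with 1 number came from 1 mouse is not stated. P-values therefore measure the spread between these arrays, and the small number of arrays limits their precision. The protocol text describes linear amplification for all samples, while only some titles name it, so the number of rounds each array received is not known here.

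As background, T7-based linear amplification copies RNA into cDNA from a primer that combines oligo(dT), which anneals to the poly(A) tail, with a promoter for T7 RNA polymerase. The polymerase then makes many antisense copies of each cDNA. Where the product goes through a further round, the new cDNA is usually started from random primers, and the ends far from the poly(A) tail are lost first. The array reads each gene through 1 or more probe sets, each a group of short probes against a stretch of the transcript, usually near its 3′ end. Several probe sets on 1 gene can lie on different transcript ends or different parts of 1 transcript. The positions of the probes on their transcripts were not used here.

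The control probe sets of known position showed which part of a transcript kept its signal. For Gapdh, a glycolytic enzyme read at 3 positions, the 3′ probe set had deposited intensities of 3330.7 and 3169.7 on the amplified arrays and 4097.9 and 3949.3 on the total RNA arrays. Its middle probe set had 1888.8 and 2109.4 against 5095 and 4603.1, and its 5′ probe set 629.5 and 753.7 against 4367.9 and 4061. The amplified mean was thus 80.8% of the total RNA mean at the 3′ end, 41.2% in the middle and 16.4% at the 5′ end, and the groups did not overlap at any position. Shares of the controls are of deposited intensities before normalization, whose median was lower on the amplified arrays than on the total RNA arrays. Actb, the cytoskeletal β-actin, lost signal everywhere: the 3′ probe set had 595.1 and 772.8 after amplification and 3197.7 and 3194 without it, 21.4% of the total RNA mean. At the middle position of Actb the share was 5.42%, and at the 5′ position, with 75.1 and 93.2 against 2459.2 and 2233.4, it was 3.59%. Both amplified arrays lay far below both total RNA arrays at each position of Actb.

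Pcx, the mitochondrial pyruvate carboxylase, ran the other way at its 3′ end. Its 3′ control probe set had 797 and 790.6 in amplified RNA and 497.3 and 547.8 in total RNA, 152% of the total RNA mean. Its 5′ probe set had 30.5 and 16 against 54.8 and 60.3. Its middle probe set had 4.2 and 15.1 against 48 and 14.6, where the groups overlapped. The 5′ and middle signals lay near or below the median intensity of their arrays, which limits the position profile of Pcx. The regular probe set of Pcx, 1416383_a_at, was higher after amplification by 0.46 ± 0.17 on the log2 scale (limma adjusted p = 0.0427, ± the standard error), a call lost in 6 of 13 other settings, among them without each of the 4 normal arrays in turn. For Actb the regular probe set 1436722_a_at was lower by a log2 difference of -2.69 ± 0.11 (limma adjusted p = 6.21e-08), and the second regular probe set, 1419734_at, had -0.83 ± 0.31 (adjusted p = 0.0432), a call lost in 7 of 13 settings, among them without either amplified array or the first total RNA array. The control probe sets of 18S ribosomal RNA, which has no poly(A) tail in its mature form, stood apart. They had 774.9 to 933.5 on the amplified arrays and 1.8 to 31.4 on the total RNA arrays, at all 3 positions. In the contralateral kidney the same probe sets had 79.7 to 207.6 in amplified and 1.4 to 28.1 in total RNA. The probe sets of the transferrin receptor control were dim in all 4 normal arrays, between 1 and 24.3, and give no position profile.

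**Figure D1:**
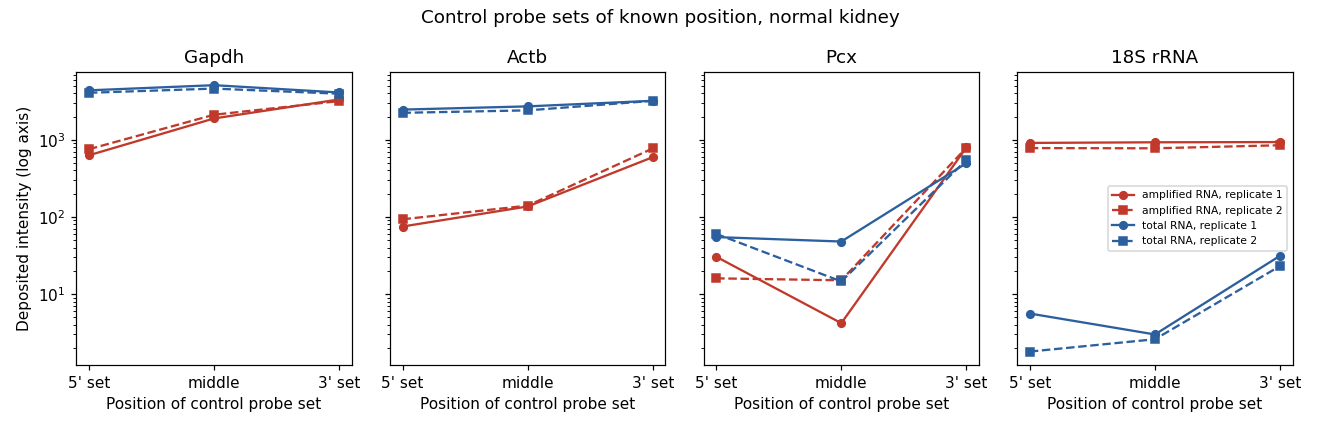
Deposited intensity (log axis) of the Affymetrix control probe sets for Gapdh, Actb, Pcx and 18S rRNA by position on the transcript, with 1 line per normal kidney array (red, amplified; blue, total RNA). For Gapdh the amplified arrays approach the total RNA arrays at the 3′ probe set (80.8% of the mean) and fall away at the 5′ probe set (16.4%), Actb is lower at all 3 positions, and 18S rRNA is bright on the amplified arrays alone.

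Arrays of 1 preparation resembled each other more than arrays of the 2 preparations. Across the tested probe sets, Pearson's r was 0.989 between the amplified arrays and 0.983 between the total RNA arrays, and 0.879 to 0.893 for the 4 pairs across preparations (probe sets are not independent replicates). The typical probe set differed by 0.128 on the log2 scale between the amplified arrays and by 0.155 between the total RNA arrays, and by 0.445 to 0.484 between preparations. A difference of 2-fold or more was seen for 0.339% and 0.715% of probe sets within a preparation and for 15.4% to 18% across preparations. The median deposited intensity was 41.2 and 43.5 on the amplified arrays and 55.9 and 59.7 on the total RNA arrays, so the signals were put on one scale by quantile normalization.

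A large part of the probe sets differed between the preparations. At a Benjamini-Hochberg adjusted p below 0.05 in limma, 3660 of the 13575 probe sets were higher in amplified RNA (27%) and 3120 were lower (23%), 49.9% in all. Of these, 1017 were at least 2-fold higher and 1065 at least 2-fold lower. The larger changes were mostly losses: 130 probe sets were at least 4-fold lower and 49 at least 4-fold higher, and 12 were at least 8-fold lower and 4 at least 8-fold higher. The median log2 difference was 0.03, and the 10th and 90th percentiles were -0.88 and 0.90. In 10557 probe sets, 77.8%, the 2 amplified and the 2 total RNA arrays did not overlap. The split between higher and lower depended on the scaling: with each array scaled to one median instead of quantile normalized, 4811 were higher and 2214 lower, and the median over all probe sets moved from 0.03 to 0.19. Directions below are relative to the typical probe set of the same arrays, and log2 differences understate the change of dim probe sets, because an offset was added before the logarithm. Of 212 called probe sets of the named genes, 0 changed sign under the other settings run, median scaling included, and 28 lost their call in at least 1. Where the groups do not overlap, only the settings that change the offset or the scaling could have turned a sign.

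**Figure D2:**
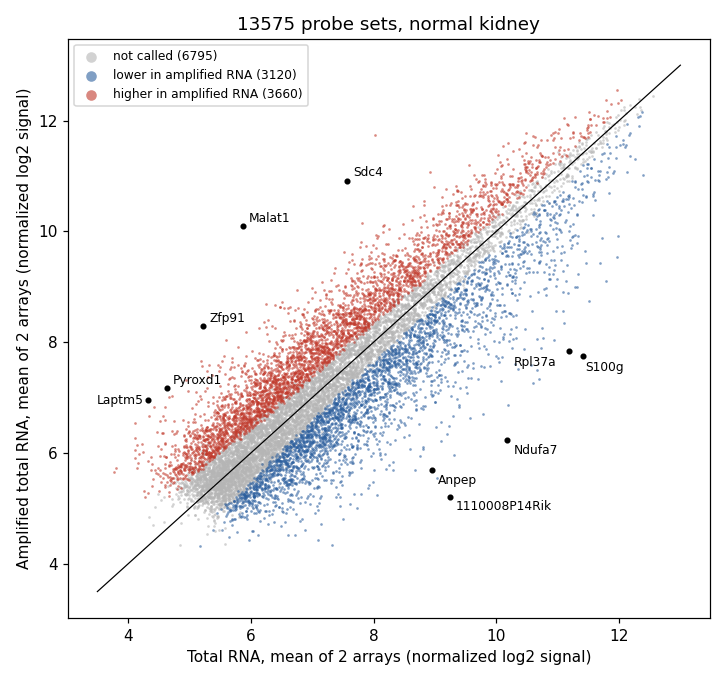
Normalized log2 signal of 13575 probe sets in total RNA (horizontal, mean of 2 arrays) and amplified total RNA (vertical, mean of 2 arrays), normal kidney, with called probe sets in colour and the line of equal signal. The 5 largest losses lie at the lower right, from Anpep (8.94 in total RNA) to S100g (11.41), and Malat1, Sdc4, Zfp91, Laptm5 and Pyroxd1 lie far above the line.

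The 12 largest losses ran from -2.85 (Ppp1r1a) to -4.02 (1110008P14Rik). Probe set 1436567_a_at of Ndufa7, a small accessory subunit of respiratory complex I, had normalized log2 signals of 6.13 and 6.34 in amplified RNA and 10.23 and 10.13 in total RNA. The difference was -3.95 ± 0.14 (limma adjusted p = 2.35e-08), a 15.4-fold loss on the scale with the offset. All 5 tested probe sets of Ndufa7 were lower, from -1.99 to -3.95. S100g encodes calbindin-D9k, a calcium-binding protein of calcium-transporting epithelia. It had 7.79 and 7.71 after amplification and 11.53 and 11.28 without, a difference of -3.65 ± 0.12 (limma adjusted p = 1.79e-08). Anpep, the brush border aminopeptidase N, had 5.69 and 5.71 against 8.99 and 8.90, a difference of -3.25 ± 0.14. The largest losses were picked among probe sets whose groups do not overlap, so the gap between preparations follows from that rule. Arrays of 1 preparation differed by less than the 2 preparations in each of the 12, though the amplified arrays of Maz lay apart (4.05 and 4.65).

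Of the 12 genes with the largest losses, 3 encode ribosomal proteins, each with several probe sets to compare. Rpl37a, of the large ribosomal subunit, had 7.81 and 7.88 in amplified and 11.14 and 11.23 in total RNA at 1416217_a_at (-3.33 ± 0.12). Its 2 other probe sets were lower by less, with log2 differences of -0.93 and -1.42, and the first of these calls was lost without the first amplified or the second total RNA array. Rps15 and Rps24, of the small subunit, showed the same spread between probe sets. Rps15 differed by -2.90 ± 0.10 at 1416089_at and -1.72 ± 0.13 at 1416088_a_at. Rps24 differed by -2.94 ± 0.15 at 1428530_x_at and by -1.92 to -2.01 at 3 others, while 1455195_at had -0.03 ± 0.20 and was not called. Ribosomal protein genes have many near-identical pseudogene copies, so how their signal divides between copies is uncertain.

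The remaining 6 of the 12 genes with the largest losses fell by 2.85 to 4.02 on the log2 scale. 1110008P14Rik, an uncharacterised clone, had the largest fall, with 5.12 and 5.31 against 9.10 and 9.38 (-4.02 ± 0.20) at 1423947_at, and its other probe sets had -0.87 and -1.56, both called lower, the first not without the second amplified or the first total RNA array. Fmc1, an assembly factor of the mitochondrial ATP synthase, had -3.09 ± 0.13. Timm10b, a chaperone of the mitochondrial inner membrane import machinery, had -2.99 ± 0.14, with -2.14 and -1.78 at 2 other probe sets. Maz, a zinc finger transcription factor, had -2.97 ± 0.25. Selenow, a small selenoprotein, had -2.88 ± 0.14, and -0.80 at another probe set. Ppp1r1a, an inhibitor of protein phosphatase 1, had -2.85 ± 0.18. All 12 were also called lower in the contralateral kidney.

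The 12 largest gains ran from 2.34 (Srrm1) to 4.23 (Malat1) and fell in genes of varied function. Sdc4 encodes syndecan-4, a heparan sulfate proteoglycan of the cell surface. Its probe set 1417654_at had 10.94 and 10.89 in amplified RNA and 7.52 and 7.63 in total RNA, a difference of 3.34 ± 0.11 (limma adjusted p = 1.79e-08) or 10.1-fold. The second probe set of Sdc4, 1448793_a_at, had -0.23 ± 0.14 and was not called, so the gain was seen through 1 of 2 probe sets. Malat1, an abundant nuclear long non-coding RNA, had 10.25 and 9.94 against 5.93 and 5.80 at 1452378_at (4.23 ± 0.13, 18.7-fold). Of its 3 other probe sets, 1418189_s_at gained 3.71 ± 0.19 and 1418188_a_at 1.52 ± 0.20, while 1438403_s_at differed by -1.15 ± 0.32 and was called lower. That last call was lost under median scaling and without the first amplified or the first total RNA array. Zfp91, a zinc finger protein that acts as a ubiquitin ligase, had 8.32 and 8.25 against 5.49 and 4.96 at 1426326_at (3.06 ± 0.19), and -0.04 ± 0.11 at its other probe set.

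Among the other genes with the largest rises, some gained at 1 probe set and not at another. Laptm5, a lysosomal membrane protein of leukocytes, had 2.63 ± 0.22 at 1436905_x_at and -0.35 ± 0.17, not called, at 1426025_s_at. Arpc5l, a subunit of the actin-nucleating Arp2/3 complex, had 2.45 ± 0.20 at 1436421_s_at and -0.39 ± 0.13, called lower, at 1452044_at. The second of these calls was lost in 5 of 13 settings, among them median scaling and the fits without the first amplified or either total RNA array. Rnf20, a ubiquitin ligase for histone H2B, had 2.42 ± 0.22 at 1452361_at, 0.43 ± 0.16 at 1449664_s_at (a call lost in 8 of 13 settings, among them without each of the 4 normal arrays in turn) and -0.35 ± 0.29, not called, at 1419916_at. In Rmi1, a subunit of a complex that resolves DNA recombination intermediates, both probe sets gained, by 2.43 ± 0.42 and 1.13 ± 0.16. Itsn1, an endocytic scaffold protein, likewise gained 2.37 ± 0.38 and 0.60 ± 0.18, the latter not called without either amplified array or the first total RNA array. The total RNA arrays of Itsn1 lay apart at 1435885_s_at, with 5.63 and 4.24. At the probe set with the largest gain, total RNA was dim for Rmi1 (4.09 and 4.14), Laptm5 (4.45 and 4.21), Rnf20 (4.24 and 4.60) and Pyroxd1 (4.64 and 4.62). It was also low for Pon2 (5.46 and 4.91), Fen1 (5.06 and 5.34) and Zfp91 (5.49 and 4.96). Such probe sets may have passed the filter on dim signal through their amplified arrays. Pyroxd1 (2.54 ± 0.18), an oxidoreductase, Pon2 (2.48 ± 0.19), a paraoxonase, and Fen1 (2.37 ± 0.27), a flap endonuclease of DNA replication and repair, had 1 tested probe set each. All of these genes were called higher in the contralateral kidney at the probe set with the largest gain, whereas Srrm1, a splicing coactivator and the last of the 12, was called lower there.

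Probe sets of 1 gene often gave different answers. Of the genes read by a single symbol, 2861 had 2 or more tested probe sets, 7063 in all, and 903 had 3 or more. In 385 of these genes, 13.5%, at least 1 probe set was higher and at least 1 lower. All probe sets were higher in 245 genes (8.56%) and all lower in 189 (6.61%). Another 816 genes (28.5%) combined higher with uncalled probe sets, 632 (22.1%) combined lower with uncalled ones, and 594 (20.8%) had no call. Among the 307 genes with 4 or more probe sets, 102 had opposite calls, 8 were higher throughout and 7 lower throughout. The range between the highest and lowest difference of 1 gene had a median of 0.73 on the log2 scale and passed 1, a 2-fold disagreement, in 959 genes (33.5%). In the 1958 genes with exactly 2 probe sets, the differences had the same sign in 1115 (56.9%). The intraclass correlation of differences within genes was 0.255, and their standard deviation within genes was 0.65 against 0.73 over all probe sets. The count of genes with opposite calls was lower with 1 array left out: it was 219 without the first amplified array, 241 without the second, 254 without the second total RNA array and 288 without the first.

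The 12 clearest genes with opposite calls, ranked by the smaller of their 2 opposed differences, included several with a clean contrast. Dnajb1, an Hsp40 co-chaperone of Hsp70, had 9.54 and 9.25 in amplified against 8.06 and 7.70 in total RNA at 1416755_at, a gain of 1.52 ± 0.15 (limma adjusted p = 1.71e-05). At 1416756_at the same gene had 5.28 and 5.56 against 7.61 and 7.37, a difference of -2.07 ± 0.19 (limma adjusted p = 9.08e-06). Neither pair of groups overlapped, and the contralateral kidney gave 1.38 and -1.83 for the same 2 probe sets. Aqp3, the basolateral water channel of collecting duct principal cells, gained at 1450460_at (8.93 and 9.08 against 7.77 and 7.72, 1.26 ± 0.16) and lost at 1422007_at (4.75 and 4.47 against 6.80 and 6.96, -2.26 ± 0.29). Another probe set of Aqp3, 1422008_a_at, had 0.64 ± 0.21, a call lost in 4 of 12 settings, among them without either amplified array or the second total RNA array.

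Tgm2 and Ywhaz showed the split over more probe sets. Tgm2, the calcium-dependent transglutaminase 2, was higher at 1433428_x_at, 1437277_x_at and 1455900_x_at, by 1.01, 1.25 and 1.05, and lower at 1417500_a_at and 1426004_a_at, with -1.10 and -1.72. The contralateral values of the 5 Tgm2 probe sets had the same signs. Ywhaz, the signalling adaptor 14-3-3 zeta, had 7 tested probe sets: 5 were higher, by 0.42 to 1.37, 1 was not called, and 1448218_s_at was lower, with 8.25 and 8.30 against 9.84 and 9.65 (-1.47 ± 0.18). Hnrnpu, a nuclear RNA-binding protein, was higher at 1423051_at (1.26 ± 0.11) and 1434390_at (0.52 ± 0.18), lower at 1450849_at (-1.56 ± 0.14) and 1434391_at (-1.01 ± 0.21), and not called at 1423050_s_at (0.32 ± 0.18). Its call at 1434390_at was lost in 5 of 12 settings, among them without either amplified array or the second total RNA array. The Ywhaz calls at 1416103_at (0.66 ± 0.16) and 1436971_x_at (0.42 ± 0.12) were each lost in 2 of 13, without the first amplified array and without the first or the second total RNA array, respectively.

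Myo1c, a class I myosin, had 1.47 ± 0.20 at 1449550_at, -2.18 ± 0.27 at 1449551_at and -1.08 ± 0.18 at 1419648_at. Its brightest probe set, 1419649_s_at, had -0.17 ± 0.10 and was not called. Ddx6, an RNA helicase of processing bodies, had 1.64 ± 0.12 at 1434697_at and -1.62 ± 0.16 at 1439122_at, and -0.36 ± 0.16, not called, at 1424598_at. Wasl, the actin regulator N-WASP, had 0.98 and 1.33 at 2 probe sets and -1.45 ± 0.16 at 1426777_a_at. In Rnf14, a ubiquitin ligase, 1437035_x_at had 1.41 ± 0.20 and the other 2 had -1.34 and -1.63. Tmem33, an endoplasmic reticulum membrane protein, had 1.27 ± 0.18 and -1.78 ± 0.15, and 0.21 ± 0.13, not called, at 1425568_a_at. Rsrp1, a protein rich in arginine and serine, had 1.25 ± 0.18 and -1.82 ± 0.15. Its brightest probe set, 1417001_a_at, had 0.33 ± 0.15 and was not called. Srrm1 had 7.06 and 6.96 in amplified against 5.26 and 4.07 in total RNA at 1420935_a_at (2.34 ± 0.36). It had 0.66 ± 0.12 at its brightest probe set, -1.45 ± 0.32 at 1420934_a_at and -0.22 ± 0.20, not called, at 1450045_at. Its total RNA arrays differed from each other by more than 1 log2 unit at 1420935_a_at.

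**Figure D3:**
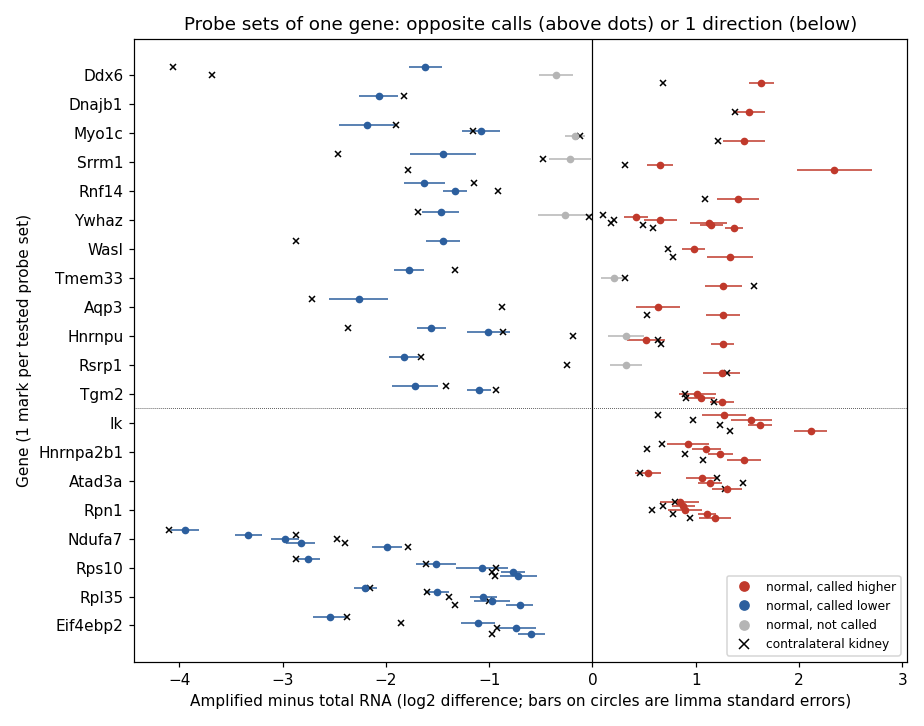
Amplified minus total RNA (log2 difference) for each tested probe set of the 12 genes with the clearest opposite calls (upper rows) and of 8 genes whose 4 or 5 probe sets all moved 1 way (lower rows). Circles are the normal kidney with limma standard errors, coloured by call, and crosses are the contralateral kidney. Dnajb1 spans -2.07 to 1.52, while Ndufa7 stays between -3.95 and -1.99.

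Other genes kept 1 direction over 4 or more probe sets. Among the gains, Ik, a spliceosome component, had 1.27 to 2.11 over 4 probe sets. Hnrnpa2b1, an RNA-binding protein of nuclear transcripts, had 0.92 to 1.46 over 4. Atad3a, an ATPase of the mitochondrial inner membrane, had 0.54 to 1.30 over 4, and Rpn1, the ribophorin I subunit of the oligosaccharyltransferase, had 0.85 to 1.19 over 5. Among the losses, Ndufa7 was followed by Rps10, of the small ribosomal subunit, with 5 probe sets between -2.75 and -0.72. Rpl35, of the large subunit, had 5 probe sets between -2.20 and -0.71, and Eif4ebp2, a repressor of cap-dependent translation, had 4 between -2.54 and -0.59. The weakest calls of the last 3 genes were not kept throughout: Rps10 1439374_x_at was lost without the first array of either preparation, Rpl35 1436840_x_at and Eif4ebp2 1436158_at under median scaling, and Eif4ebp2 1455575_at without the second amplified or the first total RNA array. Even in these genes the sizes varied: at Rps10 probe set 1416719_a_at had 8.34 and 8.37 against 11.05 and 11.16 (-2.75 ± 0.11), and 1434854_a_at had 9.68 and 9.70 against 10.52 and 10.39 (-0.77 ± 0.12).

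For the comparison of gene groups, each gene was read through its brightest tested probe set (mean of all 10 arrays). Over the 8300 genes with a tested probe set, 2364 were higher (28.5%) and 1724 lower (20.8%), with a median of 0.06. A representation by 1 probe set leaves out the disagreements described above. The lists were set against these shares, without a test of their own, and their names describe gene families and not a shared behaviour.

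Genes of the cytosolic ribosome, which builds proteins, were lower more often than all genes. Of 43 tested, 25 were lower (58.1%) and 4 higher (9.3%), with a median of -0.55. Rps24 (-1.96 ± 0.11), Rps27l (-1.85 ± 0.10) and Rps15 (-1.72 ± 0.13) had the largest differences, and the 4 higher were Rps6 (1.09), Rpl14 (0.83), Rps25 (0.67) and Rps3 (0.31), named after their values were seen, of which Rps3 lost its call without the second array of either preparation. The mitochondrial ribosome, which translates the proteins encoded by mitochondrial DNA, had 38 of 74 lower (51.4%) and 8 higher (10.8%), with a median of -0.41. Mrpl34 had 7.03 and 6.64 in amplified against 9.36 and 9.44 in total RNA (-2.56 ± 0.16), and Mrpl20 and Mrpl14 had -2.23 ± 0.17 and -2.01 ± 0.15. The respiratory chain and ATP synthase, nuclear-encoded subunits and assembly factors of oxidative phosphorylation, had 40 of 85 lower (47.1%) and 15 higher (17.6%), with a median of -0.20. Atp5l, a small subunit of the ATP synthase, had 7.67 and 8.07 against 10.42 and 10.48 (-2.58 ± 0.14), and Uqcr10, a small subunit of complex III, had -2.41 ± 0.14 and was lower at its 2 other probe sets too. Under median scaling 4 were higher and 18 lower in the cytosolic ribosome, 18 and 29 in the mitochondrial ribosome, and 19 and 29 in the respiratory chain. The medians were then -0.27, -0.08 and 0.03 for these 3 lists, beside 0.25 over all genes, so the sign of the respiratory chain median turned, while all 3 remained below the median of all genes.

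Splicing factors and RNA helicases, the proteins that cut introns out of transcripts and unwind RNA, were higher more often than all genes. Of 109 tested, 61 were higher (56%) and 15 lower (13.8%), with a median of 0.51, and 71 were higher and 10 lower under median scaling. Hnrnpm, a splicing regulator, had 8.96 and 8.91 in amplified against 6.80 and 6.69 in total RNA (2.19 ± 0.14). Snrpa1, a protein of the U2 small nuclear ribonucleoprotein, had 1.83 ± 0.23, with 1.12 ± 0.16 and 0.45 ± 0.18, the last not called, at 2 other probe sets. The largest loss of the list was in Sf3b5, the small SF3b subunit, with 6.33 and 6.01 against 8.38 and 8.17 (-2.11 ± 0.17). The vacuolar ATPase, the proton pump of lysosomes and of intercalated cells, had 10 of 19 higher and 3 lower, with a median of 0.38 (11 higher and 1 lower under median scaling). Atp6v1h, its H subunit, had 9.62 and 9.81 against 7.79 and 7.77 (1.93 ± 0.12), and the kidney-enriched subunit gene Atp6v0a4 had 7.06 and 6.91 against 8.47 and 8.75 (-1.63 ± 0.16).

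Most other lists lay nearer the shares of all genes. The proteasome had 14 of 37 higher and 7 lower, and its members moved widely: Psmb3 gained 1.94 ± 0.14 and Psmd8 differed by -1.96 ± 0.12. Psmb3 had another probe set at 0.04 ± 0.14, not called. Translation factors had 17 of 49 higher and 9 lower, between Eif2s3y (2.07 ± 0.24), a Y-linked initiation factor subunit, and Eif3k (-2.19 ± 0.14). Zinc finger genes had 32 of 119 higher and 18 lower, and solute carriers outside the mitochondrion had 54 of 167 higher and 31 lower. Mitochondrial carriers had 12 of 31 higher and 10 lower, though their 3 largest differences were losses, of Slc25a23 (-1.96 ± 0.20), Slc25a42 (-1.81 ± 0.17) and Slc25a25 (-1.31 ± 0.15). Rab GTPases had 11 of 41 higher and 8 lower, and cytochrome P450 genes had 4 of 31 higher and 5 lower. Ubiquitin-specific proteases had 11 of 31 higher and 4 lower, and chromatin regulators 10 of 35 higher and 5 lower. Among immediate early and short-lived regulators, 13 of 32 were higher and 6 lower, with Klf6 at 1.66 ± 0.16 and the helix-loop-helix factor Id1 at -1.66 ± 0.17. Other probe sets of Klf6 had -0.42 ± 0.20, not called, at 1418280_at and 0.66 ± 0.21 at 1427742_a_at, a call lost in 4 of 12 settings. Collagens and laminins had 8 of 31 higher and 6 lower, and genes of very large proteins, whose coding sequences are among the longest, had 8 of 36 higher and 6 lower with a median of 0.00. Of long non-coding RNAs, 3 of 7 were higher and 1 lower, and of replication-dependent histones 1 of 3 was higher.

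Median scaling moved the split of most of these lists toward higher calls, as it did for all genes, of which 3194 were then higher and 1146 lower. The proteasome then had 18 higher and 4 lower, translation factors 22 and 2, zinc finger genes 41 and 14, and solute carriers 71 and 11. Mitochondrial carriers had 12 and 5, and Rab GTPases 17 and 7. The balance of cytochrome P450 genes turned, to 8 higher and 1 lower. Ubiquitin-specific proteases had 15 and 2, chromatin regulators 13 and 2, and immediate early and short-lived regulators 15 and 5. Collagens and laminins had 12 and 3, very large proteins 13 and 6, long non-coding RNAs 3 and 0, and replication-dependent histones 1 and 0.

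Several list members again depended on the probe set. Birc6, a very large ubiquitin-conjugating enzyme, had -1.09 ± 0.17 at its brightest probe set, 2.14 ± 0.19 at 1427488_a_at and 0.08 ± 0.33, not called, at 1419563_at. Kcnj1, the potassium channel ROMK of the thick limb, had 10.24 and 10.27 in amplified against 9.48 and 9.62 in total RNA at 1418613_at (0.70 ± 0.10), and -1.55 ± 0.19 at 1418614_at. Gas5, a long non-coding host gene of small nucleolar RNAs, had -0.56 ± 0.11 and -1.49 ± 0.11 at 2 probe sets and 0.62 ± 0.17 and 0.97 ± 0.25 at 2 others. In Gas5 the call at -0.56 was lost under median scaling, and that at 0.62 without either amplified array or the second total RNA array. For these 3 genes, as for other genes read through their brightest probe set, the direction given for the gene is the direction of 1 probe set.

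**Figure D4:**
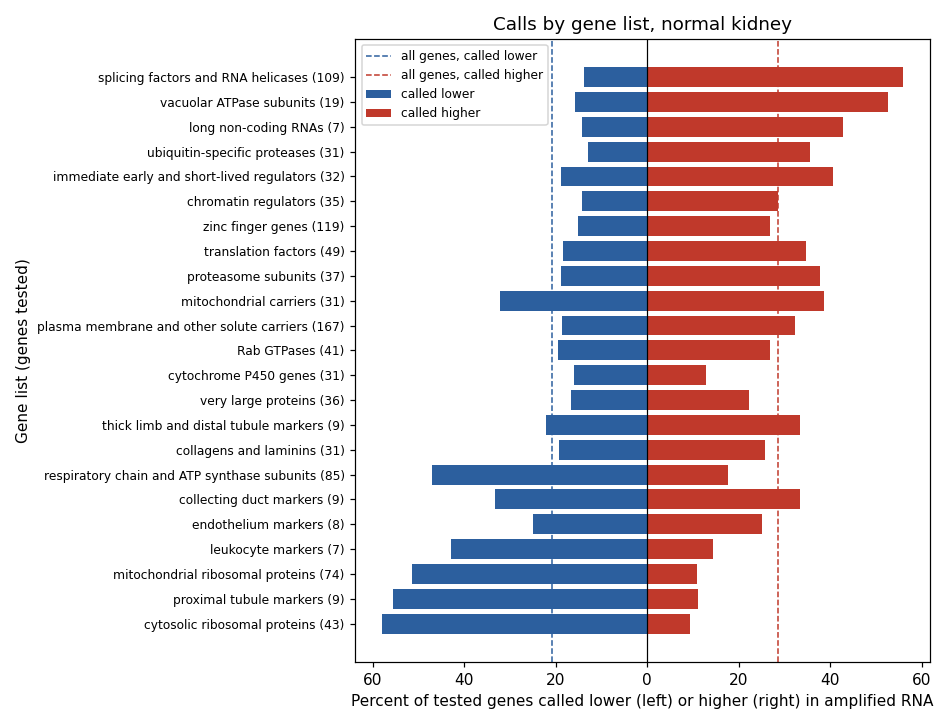
Percent of each list's tested genes called lower (blue, left) or higher (red, right) in amplified RNA of normal kidney, for lists with 7 or more tested genes, ordered by median difference, with dashed lines at the shares of all 8300 genes (20.8% and 28.5%). Splicing factors and RNA helicases reach 56% higher, and cytosolic ribosomal proteins 58.1% lower.

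Among the markers of kidney cell types, members of 1 cell type differed in direction. Of all genes, 28.5% were higher and 20.8% lower (38.5% and 13.8% under median scaling). The marker lists hold few members and were not tested against these shares. All 9 proximal tubule markers on the array were tested, and their median signal was 10.92 and 10.57 on the amplified and 10.69 and 10.60 on the total RNA arrays. Of the 9, 5 were lower and 1 higher (2 lower and 1 higher under median scaling), between Slc22a6, an organic anion transporter (-0.90 ± 0.10), and Slc5a2, the glucose transporter SGLT2, with 11.69 and 11.75 against 10.61 and 10.60 (1.12 ± 0.08). A second probe set of Slc22a6, 1438332_at, had 0.18 ± 0.21 and was not called. Slc22a8, another organic anion transporter, had -0.81 ± 0.11. Thick limb and distal tubule markers had 3 of 9 higher and 2 lower (3 higher and 1 lower under median scaling). They ran from Slc12a3, the thiazide-sensitive cotransporter (-0.75 ± 0.11), to the tight junction protein Cldn16 (0.97 ± 0.17). Collecting duct markers had 3 of 9 higher and 3 lower (4 higher and 2 lower under median scaling). They ran from Hsd11b2, the glucocorticoid-inactivating enzyme (-0.93 ± 0.11), to the anion exchanger Slc4a1 (1.35 ± 0.16). A second probe set of Slc4a1, 1416464_at, had -0.32 ± 0.16 and was not called. The groups compared are 2 preparations of normal kidney RNA, and cell numbers and RNA per cell were not measured.

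Markers of rarer kidney cells and of other tissues also split, to be read beside the same shares of all genes. Among podocyte markers, the transcription factor Tcf21 had 6.67 and 6.55 in amplified against 8.41 and 8.24 in total RNA (-1.72 ± 0.15), while Synpo gained 0.88 ± 0.20 and Podxl 0.65 ± 0.15. A second probe set of Podxl, 1417396_at, had -0.24 ± 0.21 and was not called. Endothelium markers had 2 of 8 higher and 2 lower (2 higher and 1 lower under median scaling). They ran from Emcn, endomucin, with 7.28 and 7.12 against 9.23 and 9.36 (-2.09 ± 0.15), to Tek, the angiopoietin receptor (0.77 ± 0.15). Leukocyte markers had 3 of 7 lower and 1 higher (3 lower and 2 higher under median scaling). Cd74, the MHC class II invariant chain, had -1.36 ± 0.11 and Cd52 had -1.27 ± 0.28. Ptprc, the CD45 antigen, had 0.79 ± 0.20, a call lost without the second total RNA array. The median signal of the leukocyte markers was 6.64 and 6.26 on the amplified and 6.38 and 6.72 on the total RNA arrays, so the groups overlapped. Of the markers of fibroblasts and smooth muscle, 1 of 6 was lower, the matrix proteoglycan Dcn (-1.18 ± 0.15), and the other 5 lay between -0.11 (Tagln) and 0.52 (Pdgfrb) and were not called. Under median scaling 2 of the 6 were higher and 1 lower. Of the red cell markers, 1 of 2 was higher, Slc4a1, through 1 of its 2 probe sets. The 3 tested markers of adipose tissue and adrenal, Adipoq (-0.54 ± 0.26), Fabp4 (-0.21 ± 0.16) and Star (-0.19 ± 0.26), were not called. Their median signal was 6.42 and 5.80 on the amplified and 7.04 and 6.26 on the total RNA arrays. The part of these markers in the other results was not tested.

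Signal level, probe set type and gene span went with the calls. Probe sets were ranked by their mean over the 4 contralateral arrays, which the normal comparison does not include. In the dimmest quintile, 16.5% were higher and 12% lower, and in the brightest 35.7% were higher and 28.1% lower. Losses of at least 4-fold numbered 5 in the dimmest quintile and 52 in the brightest, while gains of that size numbered 13 and 4. The offset added before the logarithm limits how far a dim probe set can fall. The shares and counts of losses by level therefore depend partly on it. The filter on dim signal used a mean that included the amplified arrays. Dim probe sets with large gains may therefore have passed it through those arrays, while others as dim in total RNA were left out. How far this shaped the counts of gains by level was not tested. Probe set type, given by the suffix of the identifier, also went with the direction. Ordinary probe sets, ending in _at, were higher in 24.7% and lower in 22.5%. Probe sets that share probes with other sequences, ending in _x_at, were higher in 39.4% and lower in 18.8%, with a median of 0.23 against 0.01 for the ordinary ones.

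Gene span, the distance from start to end of a gene with its introns in the RefSeq table of assembly GRCm38.p6, was known for 8291 of the 8300 genes. In the quintile with the shortest span, up to 7.77 kb, 30.8% of genes were lower and 21.2% higher, with a median of -0.12 and 23 losses of at least 4-fold. In the next 4 quintiles, from shorter to longer, the share of lower genes was 22%, 18%, 16.8% and 16.2%, and the medians were 0.06, 0.09, 0.16 and 0.12. They held 10, 8, 1 and 5 losses of at least 4-fold. Across genes, Spearman's rho between span and difference was 0.117, a weak relation given as a description. Span is not the length of the spliced transcript, which was not used here.

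The contralateral kidney repeated the comparison on arrays that share none with the normal comparison, though both share the estimate of spread. There 3717 probe sets were higher (27.4%) and 3052 lower (22.5%). Of the 3660 higher in normal kidney, 2712 (74.1%) were higher there too, 849 were not called and 99 were lower. Of the 3120 lower in normal kidney, 2174 (69.7%) were lower, 935 were not called and 11 were higher. The differences in both kidneys correlated with Pearson's r = 0.791 and Spearman's rho = 0.795 over 13575 probe sets, given as a description. The direction was the same for 80.8% of all probe sets and 93.7% of those called in normal kidney. Among the 385 genes with opposite calls, the order of the opposed probe sets was the same in 375 (97.4%), and both calls were repeated in 202 (52.5%). By the brightest probe set, 2561 of 8300 genes were higher there and 1508 lower. The cytosolic ribosome had 4 higher and 23 lower, the mitochondrial ribosome 12 and 31, and the respiratory chain 15 and 41. Splicing factors and RNA helicases had 48 higher and 12 lower. The balance turned for immediate early and short-lived regulators (6 higher, 10 lower) and chromatin regulators (9 and 13). It also turned for cytochrome P450 genes (9 and 2) and leukocyte markers (3 and 2). S100g had -3.65 in both kidneys, Ndufa7 -3.95 and -4.10, and Ppp1r1a -2.85 in both.

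The effect of amplification differed between kidneys for a smaller set. A test of the difference itself called 605 probe sets (4.46%), of which 88 had a higher (0.648%) and 517 a lower effect (3.81%) in the contralateral kidney. The count moved with single arrays: it was 276 and 318 without the second and first normal amplified array, 286 without the second normal total RNA array and 354 without the first contralateral total RNA array. Malat1 at 1452378_at gained 4.23 in normal and 0.37 in contralateral kidney (limma adjusted p of the difference = 2.8e-06), and 1418189_s_at gained 3.71 in normal kidney and differed by -1.17 in contralateral kidney (adjusted p = 3.3e-06). The other Malat1 probe sets also had a lower effect in the contralateral kidney, 1418188_a_at with 1.52 and -2.78 and 1438403_s_at with -1.15 and -3.92. Ddx6 at 1424598_at, not called in normal kidney (-0.36), had -3.69 there (adjusted p of the difference = 2.6e-05). Srrm1 at 1420935_a_at had 2.34 and -1.78 (adjusted p = 0.00099). The chromatin remodeller Atrx had 6.13 and 6.58 against 5.18 and 4.77 in normal kidney, a gain of 1.38 ± 0.25, and -1.54 in the contralateral kidney (adjusted p = 0.00092). The Actb probe set 1436722_a_at lost more in the contralateral kidney, -4.31 against -2.69 (adjusted p = 0.00031). In each of these probe sets the effect was lower in the contralateral kidney, and kidney group and injection times cannot be told apart.

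**Figure D5:**
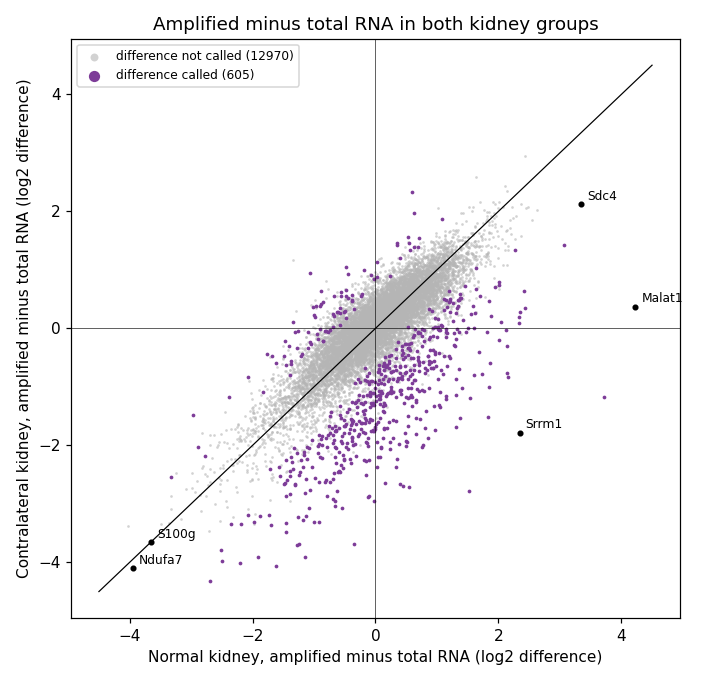
Amplified minus total RNA (log2 difference) in normal kidney (horizontal) and contralateral kidney (vertical) for 13575 probe sets, with the 605 whose effect differed between kidneys in purple and the line of equality. S100g and Ndufa7 lie on or near the line at the lower left, and Malat1 (4.23 and 0.37) and Srrm1 (2.34 and -1.78) lie far below it.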

How the data were processed

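Per the labels' protocols, column-purified RNA was labelled by a T7-based method. The authors deposited linear intensity values, 1 per probe set on each array. How these were summarised and scaled is not given in the sources used here. Detection calls were not used, and nothing is called above or below background. The deposited intensity plus an offset of 11.8 (the 25th percentile over all arrays) was put on the log2 scale and quantile normalized over 10 arrays. Probe sets with a mean above the 40th percentile were tested. Platform annotation lists 21084 probe sets, 20393 with 1 symbol, 691 with several, and 1606 unlisted. limma 3.58.1 (R 4.3.3; lmFit, then eBayes with trend) was fitted to 6 group means, with 4 residual degrees of freedom and Benjamini-Hochberg adjustment. The script was tested on simulated data. Values after ± are limma standard errors. Named genes were, among called probe sets with 1 symbol and no overlap between groups, the 12 largest rises and 12 largest falls. To these were added the 12 clearest opposite genes, 4 genes per direction with 4 or more probe sets called 1 way, and up to 3 called members per list. Members, lists and rules were chosen with earlier results of these data known. Correlations of same-numbered arrays' deviations were 0.0971 in normal and 0.0998 in contralateral kidney, just under the limit of 0.1, so numbers were not used as pairs. Values this close to the limit do not show that the arrays were unpaired.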

Additional observations from a re-analysis of the deposited data

Results flagged for a closer look

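The amplified-against-total effect differed between contralateral and normal kidney for 605 probe sets, tested by an interaction contrast in limma. Values below are the contralateral effect minus the normal effect on the log2 scale. Among the genes with the largest rises it was -3.86 for Malat1 at 1452378_at, -4.88 at 1418189_s_at, -4.30 at 1418188_a_at and -2.76 at 1438403_s_at. It was -1.22 for Sdc4, -1.64 for Zfp91, -1.77 for Rnf20 and -4.13 for Srrm1 at 1420935_a_at. Among those with the largest falls it was 0.80 for Rpl37a, 1.49 for Maz, and 0.85 and 0.76 for Selenow at 1416521_at and 1460561_x_at, whose losses were smaller in the contralateral kidney. Among the genes with opposite calls it was -3.33, -0.95 and -2.44 at the probe sets 1424598_at, 1434697_at and 1439122_at of Ddx6, -0.66 and -0.79 at 1416102_at and 1448219_a_at of Ywhaz, -1.42 for Wasl at 1426777_a_at, -1.51 for Aqp3 at 1422008_a_at and -0.81 for Hnrnpu at 1450849_at. Among the list members it was -1.60 for Zfp329, -2.92 for Atrx and -1.20 for Gadd45a. Among other probe sets of list members it was -0.78 for Psmb3 at 1417052_at, -2.40 for Kmt2e at 1427236_a_at, -2.45 for Birc6 at 1427488_a_at and -1.91 for Klf6 at 1427742_a_at. For Actb at 1436722_a_at it was -1.62. The cause of these differences was not tested.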

How the results depend on the processing

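The count of called probe sets in normal kidney was 6780 and ranged from 5386 (filter at the 60th percentile) to 7242 (only the arrays compared) over the alternatives that kept all its arrays. Fits with 1 normal array left out called fewer than the main fit. An additive model of kidney and preparation called 5218 for 1 effect of amplification shared by both kidneys. With a replicate block the count in normal kidney was 6969, and the block changed no count by more than 1.5 times. The difference between kidneys fell from 605 to 403 probe sets with no filter on dim probe sets, and ranged from 276 to 690 with 1 array left out. Genes with opposite calls numbered 385, 388 under median scaling (286 of them shared), 267 with the filter at the 60th percentile and 219 to 288 with 1 array left out. Of 212 called probe sets of the named genes, control genes and ribosomal exceptions, 184 kept their call in every setting run, 28 lost it in at least 1, and 0 reversed. Most settings refit the same normalized values and could not reverse a difference between groups that do not overlap. The cause of the shifts between settings was not tested. With 2 arrays per group and no detection calls, small differences of dim probe sets could not be resolved.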
